A study of Mus musculus with 24 samples.

Results

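The regions described here carried H3K4me2 at an end of a protein-coding gene in wild-type mouse embryonic stem (ES) cells and had no H3K4me2 peak in wild-type embryoid bodies. They were chosen by merging the overlapping H3K4me2 peaks of the 4 wild-type libraries on chromosomes 1 to 19, X and Y into regions. A region was kept when both ES lists and neither embryoid body (EB) list had a peak there, and when a RefSeq gene end lay within 2500 bp of it. Of 32800 merged regions, 1353 met the rule. The 4 wild-type H3K4me2 lists therefore fix the pattern by which the regions were found, and their values are given only as a description.

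The study profiled H3K4me2, H3K4me1 and PRDM16 by CUT&RUN, in which a nuclease tethered by an antibody cuts out the chromatin it binds. The cells were ES cells and EB at day 6, each wild type or Prdm16 KO and all of C57BL/6 background, which gave 12 groups of 2 libraries. ES cells were grown with LIF on Matrigel in medium with FBS and KSR, and EB, aggregates in which ES cells differentiate, in medium with FBS and no stated LIF. The labels give neither the KO allele nor the number of clones, and nothing states that a group's 2 libraries stem from different cultures. The p-values below therefore measure spread among libraries alone, possibly technical spread. A peak list cannot show whether Prdm16 was deleted, so the KO label was not checked here. EB are mixtures of cell types, and a mark in fewer cells cannot be told apart from less of the mark in each cell.

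H3K4me2 is a methylation mark of lysine 4 of histone H3 found at active and poised promoters and at enhancers. H3K4me1 is most abundant at enhancers and on the flanks of promoters, and is often low at the centre of an active start. ES cells hold many CpG-rich promoters of developmental regulators in a state with H3K4 methylation but little transcription, while many germline genes are under control of promoter DNA methylation. PRDM16 is a zinc finger protein with a PR domain, best known from brown fat, blood stem cells and neural progenitors.

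A set of 7 promoters at these regions shows the sequences of germline genes and of CpG-rich developmental genes that the results below turn on. CpG-poor promoters, which were also common at the regions, are not printed. Each run is the RefSeq promoter on GRCm38.p6 (the coordinates of mm10), 250 bases before to 50 after the gene start, read 5′ to 3′ on the gene's strand, with each CpG in capitals. The first 4 belong to germline genes whose regions were in both ES KO lists and neither EB KO list, the next 2 to regions that had a peak in both EB KO lists, and the last to a region with no peak in any KO H3K4me2 list.
Tex19.1 (chr11:121145893-121146192, plus strand): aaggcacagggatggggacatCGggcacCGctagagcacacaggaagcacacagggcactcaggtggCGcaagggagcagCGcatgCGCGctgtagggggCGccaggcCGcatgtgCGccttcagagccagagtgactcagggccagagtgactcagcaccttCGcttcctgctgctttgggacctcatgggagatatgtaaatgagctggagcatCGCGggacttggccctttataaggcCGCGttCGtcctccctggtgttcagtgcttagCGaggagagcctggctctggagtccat
Sycp3 (chr10:88459337-88459636, plus strand): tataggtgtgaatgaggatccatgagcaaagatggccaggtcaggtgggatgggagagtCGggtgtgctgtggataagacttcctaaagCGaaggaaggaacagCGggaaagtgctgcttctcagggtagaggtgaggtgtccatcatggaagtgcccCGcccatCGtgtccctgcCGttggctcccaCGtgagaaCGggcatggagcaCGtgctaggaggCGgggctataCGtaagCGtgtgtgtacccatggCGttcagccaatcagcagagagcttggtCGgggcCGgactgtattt
Hormad1 (chr3:95559429-95559728, plus strand): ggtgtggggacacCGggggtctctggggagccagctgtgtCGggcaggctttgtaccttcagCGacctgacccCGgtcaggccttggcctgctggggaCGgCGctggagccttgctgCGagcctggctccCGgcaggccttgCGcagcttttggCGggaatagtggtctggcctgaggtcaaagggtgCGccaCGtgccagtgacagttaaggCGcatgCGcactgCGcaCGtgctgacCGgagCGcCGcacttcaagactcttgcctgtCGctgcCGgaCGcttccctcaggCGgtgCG
Stk31 (chr6:49395354-49395653, plus strand): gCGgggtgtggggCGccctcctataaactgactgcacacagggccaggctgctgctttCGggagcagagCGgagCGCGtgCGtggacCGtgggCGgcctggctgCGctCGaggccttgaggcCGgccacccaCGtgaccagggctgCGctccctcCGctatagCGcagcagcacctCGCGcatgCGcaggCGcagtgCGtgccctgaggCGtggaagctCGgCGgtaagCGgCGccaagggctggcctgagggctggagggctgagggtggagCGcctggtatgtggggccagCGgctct
Lhx2 (chr2:38339031-38339330, plus strand): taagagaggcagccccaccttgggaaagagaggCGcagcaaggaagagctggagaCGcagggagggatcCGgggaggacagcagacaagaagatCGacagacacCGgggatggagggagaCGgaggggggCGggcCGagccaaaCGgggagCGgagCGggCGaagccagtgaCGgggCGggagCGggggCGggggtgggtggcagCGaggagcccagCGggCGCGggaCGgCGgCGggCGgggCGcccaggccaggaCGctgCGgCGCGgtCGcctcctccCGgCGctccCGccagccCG
Efna5 (chr17:62881268-62881567, minus strand): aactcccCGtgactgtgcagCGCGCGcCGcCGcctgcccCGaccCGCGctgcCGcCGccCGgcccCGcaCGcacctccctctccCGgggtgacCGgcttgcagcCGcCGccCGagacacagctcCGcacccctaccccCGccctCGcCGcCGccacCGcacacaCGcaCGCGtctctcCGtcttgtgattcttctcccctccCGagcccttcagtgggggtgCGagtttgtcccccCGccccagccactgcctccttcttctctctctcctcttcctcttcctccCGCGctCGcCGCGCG
Mecom (chr3:30509710-30510009, minus strand): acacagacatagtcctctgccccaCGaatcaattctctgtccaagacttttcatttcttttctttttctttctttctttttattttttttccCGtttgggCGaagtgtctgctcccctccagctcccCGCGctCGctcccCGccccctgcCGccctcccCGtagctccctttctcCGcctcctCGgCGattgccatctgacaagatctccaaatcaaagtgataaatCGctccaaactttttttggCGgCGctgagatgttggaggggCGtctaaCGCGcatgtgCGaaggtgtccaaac
The Tex19.1 promoter held 16 CpG, that of Sycp3 15, that of Hormad1 24 and that of Stk31 28. The Lhx2 promoter held 34, that of Efna5 38 and that of Mecom 19.

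The lists differed in length, which sets how often any region has a peak. H3K4me2 lists held 22615 to 32874 peaks in ES cells and 13818 to 19246 in EB. H3K4me1 lists held 12746 to 15435 peaks in ES cells, 14082 and 13260 in wild-type EB, and 8943 and 5990 in EB KO. PRDM16 lists held 146 to 586 peaks. Marker genes gave a mixed picture of the stage labels. Of 33 naive and core pluripotency genes, 6 were marked in both wild-type ES lists and 15 in both wild-type EB lists, against the labels. Of 20 neuroectoderm genes 7 and 1, of 22 primitive streak and mesoderm genes 11 and 7, and of 19 endoderm genes 12 and 7 were so marked. The counts were 11 and 5 of 26 LIF, Nodal and Fgf signalling genes, 10 and 3 of 24 germline genes, and 9 and 5 of 14 primed epiblast genes. Over all 274 listed genes they were 129 and 99, so more genes were marked in ES cells, where the lists were longer. Lineage genes with more marks in ES cells therefore do not decide for or against the labels. ES and EB below are therefore the names that the labels give. A peak of H3K4me2 is not a measure of expression, and whether libraries were exchanged was not tested. The titles place 20 libraries in 1 library series, while the second H3K4me2 libraries of ES KO and of wild-type EB share another series, and the second PRDM16 library of wild-type ES and the first of ES KO share a different one. Read depth is unknown, and its part in the peak numbers was not tested.

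Of 19367 regions in both wild-type ES lists, 6668 (34.4%) had no wild-type EB peak. Near gene ends this was rarer, at 1353 of 10357 regions (13.1%). Another 8104 gene-end regions had a peak in all 4 wild-type lists and serve below as the retained gene-end regions, and 5315 ES-only regions lay more than 2500 bp from any gene end and serve as the distal ES-only regions. Without the second wild-type EB library, the longer of the EB lists, 2078 regions would have met the rule. With each list shortened to the length of the shortest, 660 did. The regions just inside the 2500 bp limit lay 2491 bp from Slc2a1, 2492 bp from Lrrc70 and 2493 bp from Clec2l, and those just outside lay 2505 bp from Arfgef3, 2508 bp from Tfap2b and 2514 bp from Htra1.

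The ES-only gene-end regions were narrow and weak beside the retained ones. Their median width was 2971 bp (441 to 12523 bp), against 4352 bp for retained gene-end regions and 2018 bp for distal ES-only regions. Retained regions merge peaks of all 4 wild-type lists and ES-only regions those of the 2 ES lists, so part of this gap in width comes from the merging. Wild-type ES peaks covered 88.5% and 88.0% of the bases of ES-only gene-end regions and 71.4% and 69.3% of those of retained ones. Each region was also ranked within both wild-type ES lists by its highest peak score, the authors' deposited value, and the lower rank was taken. The median of this rank was 32.4% for the ES-only gene-end regions and 69.5% for the retained ones. The widest region, 12523 bp, spanned the start of Hmx1, a homeobox gene of the eye and ear (chr5:35387792-35400314). The next, 11561 bp, covered ends of Aarsd1, Rundc1 and Ptges3l.

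The regions lay at 1557 genes, which is 7.11% of all protein-coding genes and 13.7% of the 11370 genes at a gene-end region in both wild-type ES lists. A single gene lay at 1123 of them (83%), and 834 (61.6%) had a gene end inside the region. The absence of a region in EB did not always leave the gene without the mark there, since 490 of the 1557 genes (31.5%) had an end marked in both wild-type EB lists. At 75 genes there were 2 or more such regions. The most genes at 1 region was 25 (chr18:37838775-37843382). Most of these were gamma protocadherins, adhesion genes that share their last exons and so the gene end near this region, and Diaph1 lay there too.

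In KO cells, which the rule did not use, most of these regions again had H3K4me2 in ES cells and lacked it in EB. A peak was present at 80.4% and 87.6% of the 1353 regions in the 2 ES KO lists and at 22.5% and 16.3% in the 2 EB KO lists. The means were 84.0% ± 5.07 and 19.4% ± 4.34 (SD, n = 2 each), and the groups did not overlap. The difference of 64.6 percentage points had an exact two-sided permutation p of 0.333, the smallest that 2 against 2 libraries allow (0.4 after Benjamini-Hochberg adjustment over the 6 tests made). With equal list lengths, which left 660 regions, the difference was 39.5 points.

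Retained gene-end regions had a peak in 95.9% and 97.8% of cases in the ES KO lists and in 95.5% and 93.1% in the EB KO lists. The share of ES-only minus the share of retained regions was -12.8 ± 3.73 points in ES KO and -74.9 ± 2.63 points in EB KO (SD, n = 2 each), a difference of 62.0 points (exact permutation p = 0.333). Distal ES-only regions were at 88.1% and 92.7% in ES KO and at 3.52% and 2.71% in EB KO. The gene-end regions thus had EB KO peaks at 16.3% to 22.5%, above both values of the distal ones, which were chosen by the same peak pattern.

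**Figure D1:**
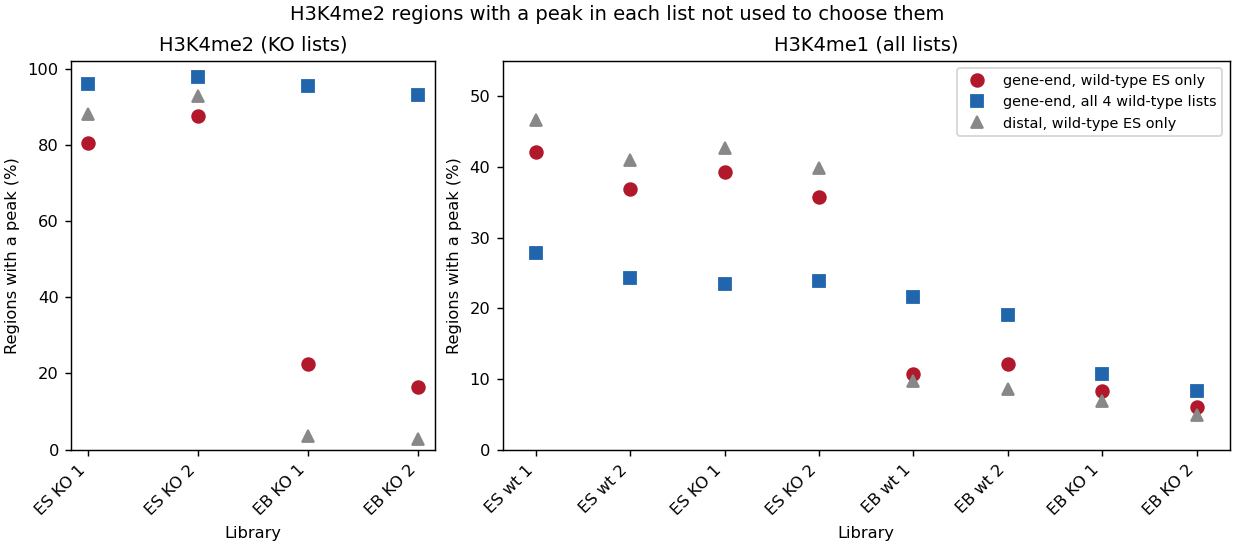
Each point is 1 library, and the vertical axis gives the percent of regions with a peak of the H3K4me2 KO lists (left) or of the H3K4me1 lists (right), for the 1353 ES-only gene-end regions (circles), 8104 retained gene-end regions (squares) and 5315 distal ES-only regions (triangles). The circles lie at 80.4% and 87.6% in ES KO and at 22.5% and 16.3% in EB KO for H3K4me2, and every ES point for H3K4me1 lies above every EB point.

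Both ES KO lists had a peak at 1053 regions (77.8%), against 91.6% of all 10357 gene-end regions in both wild-type ES lists. Neither had one at 133 (9.83%), against 3.07%. Both EB KO lists had a peak at 178 (13.2%), against 76.6%, and neither at 1006 (74.4%), against 14.1%. The full pattern, both ES KO and neither EB KO lists, was met by 825 regions (61%), against 11.7%. The opposite, neither ES KO and both EB KO lists, was met by 25 (1.85%), against 1.32%. Since 8104 of the 10357 had a peak in both wild-type EB lists, the EB background is mostly that of retained regions.

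Named regions with the full pattern lay at genes of several kinds. The scores given for single regions are not on a common scale across lists: the median H3K4me2 score of peaks at all these regions was 124 and 111 in wild-type ES but 169 and 214 in ES KO, so a higher score in ES KO does not by itself show a gain. At the far end of Efnb2, which encodes the membrane-bound ligand ephrin-B2, H3K4me2 scores were 509 and 570.1 in wild-type ES and 720.0 and 801 in ES KO, with no EB KO peak. The region (chr8:8618919-8621823) lay 1684 bp from the gene end and also had an H3K4me1 peak in all 4 ES lists. At the start of Atf3, a stress-induced transcription factor (chr1:191181626-191187035), scores were 348 and 437 in wild-type ES and 296 and 329 in ES KO. It had no H3K4me2 peak in EB KO. H3K4me1 scores were 179 and 120 in wild-type ES, 90.0 and 91.2 in ES KO and 125 and 166.5 in EB KO, with 54.7 in the second wild-type EB list only. Near Fam161a, whose product is a ciliary protein, both ES KO lists had H3K4me2, with scores of 474 and 517, and all 4 ES lists had H3K4me1.

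The 178 regions with a peak in both EB KO lists were wide, with a median of 5257 bp, against 2426 bp for the 1006 with a peak in neither. Their median ES score rank was 47.5%, against 29.9%. The highest-ranked lay at the start of Nxph1 (chr6:8947763-8952397), which encodes a secreted ligand of neurexins. Its H3K4me2 scores were 456 and 539 in wild-type ES, 380.2 and 640.1 in ES KO, and 325 and 165 in EB KO. The same region had an H3K4me1 peak in all 8 lists. At the start of Efna5, which encodes the guidance ligand ephrin-A5 (chr17:62878939-62884572), scores were 377 and 509 in wild-type ES, 509 and 716.5 in ES KO, and 134 and 90.7 in EB KO. H3K4me1 was present there in the wild-type ES lists only, with scores of 143 and 97.5.

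Lrrc4, a postsynaptic adhesion gene, had EB KO scores of 168 and 185, and Mab21l2, an eye development gene, 164 and 144. Jag1, which encodes a Notch ligand (chr2:137112929-137118426), had H3K4me2 scores of 277 and 275 in wild-type ES, 450.4 and 467 in ES KO, and 272 and 206 in EB KO. Its H3K4me1 peaks were in all 4 ES lists and in no EB list, so the 2 marks differed there in EB KO. These regions lacked a peak only in the wild-type EB lists among the H3K4me2 lists.

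The 133 regions with a peak in neither ES KO list were wide but low, with a median width of 5346 bp and a median score rank of 18.8%, against 2562 bp and 35.3% for the 1053 in both. The highest-ranked was at the start of Mecom, which encodes a PR domain zinc finger protein related to PRDM16 (chr3:30506367-30511901). Its H3K4me2 scores were 243 and 335 in wild-type ES, with no peak in any KO list, and its single H3K4me1 peak was in the first wild-type ES list. Fat1, an atypical cadherin gene, had scores of 212 and 359 in wild-type ES and 96.2 and 86.4 in EB KO, with no ES KO peak. At the start of Fezf1, a forebrain transcription factor gene, wild-type ES scores were 166 and 298 and no KO list had a H3K4me2 peak, while H3K4me1 was present in 3 of 4 ES lists. The 9.83% is the share of a group whose ES KO lists were the longest of all, at 29138 and 32874 peaks.

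H3K4me1, a mark that played no part in the choice, was also found at these regions mostly in ES cells. Peaks were present at 42.1% and 36.9% of the 1353 regions in wild-type ES, 39.2% and 35.8% in ES KO, 10.7% and 12.1% in wild-type EB, and 8.28% and 5.99% in EB KO. Every ES library was above every EB library. The means were 38.5% ± 2.82 in ES cells and 9.28% ± 2.71 in EB (SD, n = 4 each), 29.2 points apart. The exact permutation p, with stage shuffled within genotype, was 0.0556, the smallest that the 36 assignments allow (0.167 after adjustment over the 6 tests). With the higher-scoring 50% of each list alone the difference was 15.95 points, and with equal list lengths 17.1 points.

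The difference was present in each genotype, at 28.1 points in wild type, whose H3K4me1 lists were of like length in both stages, and 30.4 points in KO, whose EB lists were the shortest (exact permutation p = 0.333 each). Distal ES-only regions had the same pattern, at 46.7%, 41.0%, 42.7% and 39.9% in the ES lists and at 9.67%, 8.56%, 6.87% and 4.82% in the EB lists. It was therefore not particular to gene ends. At the retained gene-end regions H3K4me1 was at 27.8%, 24.3%, 23.4% and 23.8% in the ES lists and at 21.5%, 18.98%, 10.7% and 8.30% in the EB lists. ES-only gene-end regions thus had more H3K4me1 than retained ones in ES cells, by 13.7 ± 1.73 points, and less in EB, by -5.60 ± 4.08 points (SD, n = 4 each). This difference of 19.3 points had an exact permutation p of 0.0556 (0.167 adjusted). Regions at the far end of a gene only were 32.7% of the ES-only gene-end set and 2.31% of the retained set. With both sets limited to gene starts the difference was 11.1 points, and the part of this mix was not tested further.

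Between genotypes the H3K4me1 shares differed by a few points. In ES cells the KO mean was 37.5% ± 2.46 and the wild-type mean 39.5% ± 3.71 (SD, n = 2 each), a difference of -2.00 points (exact permutation p = 0.667), and without the first wild-type ES library it was 0.63 points. In EB the KO mean was 7.13% ± 1.62 and the wild-type mean 11.4% ± 0.993, a difference of -4.29 points (exact permutation p = 0.333), but 0.45 points with equal list lengths. H3K4me1 was in both wild-type and neither KO ES lists at 40 regions (2.96%, against 2.51% of all gene-end regions in both wild-type ES lists), and in the reverse pattern at 29 (2.14%, against 1.69%). In EB the wild-type-only pattern was met by 40 regions (2.96%, against 4.84%) and the KO-only pattern by 8 (0.591%, against 0.55%). The first 2 and the last share were near their background, and the wild-type-only share in EB was below it.

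An H3K4me1 peak in at least 1 ES list was found at 856 regions (63.3%, against 49% of the background) and in at least 1 EB list at 296 (21.9%, against 32.9%). All 4 ES lists had one at 235 (17.4%, against 10.8%), and all 4 ES lists with no EB list at 155 (11.5%, against 4.06%). The latter pattern was met by 17% of distal ES-only regions. All 8 lists had one at 11 (0.813%, against 1.25%), and 432 regions (31.9%, against 40.1%) had none in any list. Among the 155, Ror2, which encodes a receptor for Wnt5a, had a region of 2719 bp at its far end (chr13:53109353-53112071) with H3K4me1 scores of 93.7 and 191 in wild-type ES and 132 and 78.0 in ES KO. Dact1, an intracellular modulator of Wnt signalling, had a region 662 bp from its far end with H3K4me1 scores of 123, 98.8, 132 and 68.6 in the ES lists in the same order. Pcdh7, a protocadherin gene, had a region of 6220 bp over its start with scores of 69.1, 106, 76.9 and 101.

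Among the 11 regions with H3K4me1 in all 8 lists was Kmt2d, the gene of an H3K4 methyltransferase that acts at enhancers (chr15:98866841-98874230). Its H3K4me1 scores were 122 and 138 in wild-type ES, 217 and 107 in ES KO, 163 and 213 in wild-type EB, and 68.2 and 200.3 in EB KO. H3K4me2 was at 111 and 99.2 in wild-type ES, 226 and 269 in ES KO and 69.1 and 135 in EB KO, so H3K4me1 was present in wild-type EB where H3K4me2 had no peak. Zfp703, Inhbc and Mknk2 were others of these 11. Inhbc, which encodes a subunit of activin C, also had peaks in 4 PRDM16 lists. These were both wild-type ES lists, with scores of 106 and 104, and both ES KO lists, with 188 and 131.

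As the ES-only regions were weak beside the retained ones, the comparison was repeated within 5 equal bins of the ES score rank of all gene-end regions in both wild-type ES lists. The ES-only regions were 34% of the weakest bin and 1.79% of the strongest, or 704, 341, 168, 103 and 37 regions from weakest to strongest. Within each bin, the mean H3K4me1 share in ES minus that in EB was 24.1, 31.3, 36.5, 39.6 and 46.6 points at ES-only regions. At retained regions of the same bins it was 8.81, 7.36, 9.02, 8.83 and 14.4 points. H3K4me2 in EB KO rose from 14.2% to 36.5% of ES-only regions across the bins, against 84.0% to 98.7% of retained ones. In ES KO it rose from 79.6% to 98.6% of ES-only regions, against 87.3% to 99.9% of retained ones. These are values with no test.

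**Figure D2:**
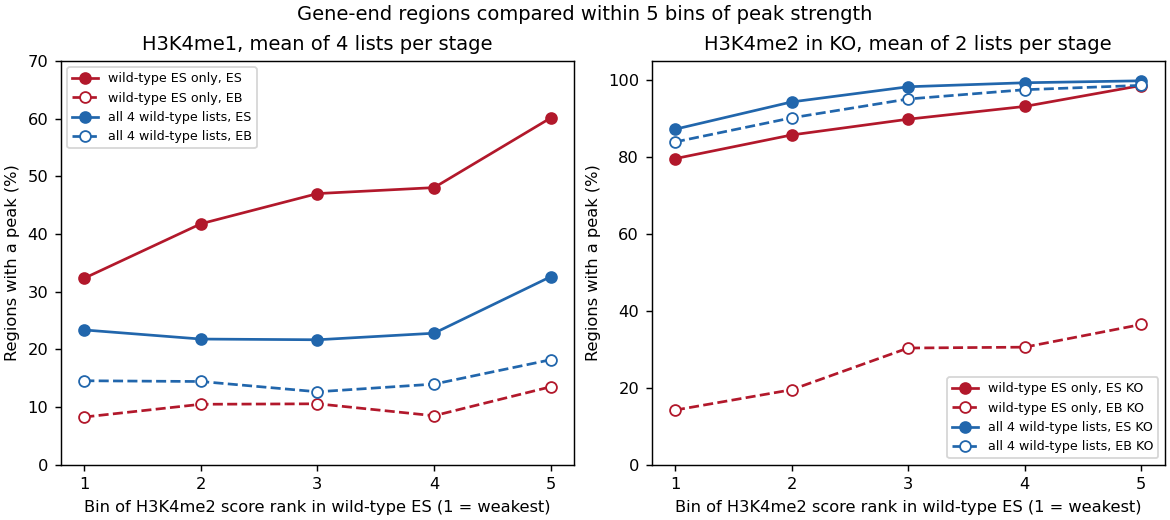
The horizontal axis is the bin of H3K4me2 score rank in wild-type ES (1 weakest, 5 strongest), and the vertical axis the percent of regions with a peak, as the mean of 4 H3K4me1 lists (left) or 2 KO H3K4me2 lists (right) per stage, for ES-only and retained gene-end regions. At ES-only regions the H3K4me1 lines for ES and EB are 24.1 points apart in the weakest bin and 46.6 points apart in the strongest, which holds 37 regions.

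A gene end is either the transcription start or the far end of the gene, and these were separated by the strand of the RefSeq promoter, known for 17492 of 21887 genes (79.9%). The comparison of starts with far ends was made after the values were seen and carries no test. A start lay within 2500 bp at 608 regions (44.9%), only a far end at 442 (32.7%), and the strand was not given for 303 (22.4%). Of the retained regions, 78.5% lay at a start and 2.31% at a far end only. Of the 442 far-end regions, 300 (67.9%) had their centre inside the gene span, and 34 (7.69%) had some start of the promoter table within 2500 bp. The start of the same gene had a region in all 4 wild-type lists for 212 of them (48%).

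The 2 classes differed in what they kept in KO. Far-end regions had H3K4me2 at 89.4% and 92.8% in ES KO and at 3.17% and 2.04% in EB KO, close to the distal regions. Start regions had it at 74.2% and 84.0% in ES KO and at 38.2% and 28.3% in EB KO. A peak in both EB KO lists was found at 145 start regions (23.8%) and at 4 far-end regions (0.905%). Among retained regions the shares were 91.6% at starts and 66.8% at far ends. The full KO pattern was met by 376 far-end regions (85.1%) and 269 start regions (44.2%), against 12.8% and 1.78% of retained far-end and start regions. The direction of both contrasts between far ends and starts was thus also present among retained regions. Start regions had a median width of 3848 bp and far-end regions 2409 bp.

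For H3K4me1, far-end regions were at 48.4%, 41.9%, 46.6% and 41.2% in the ES lists and at 4.52%, 6.33%, 3.17% and 2.49% in the EB lists. Start regions were at 37.0%, 33.6%, 33.6% and 30.1% in the ES lists and at 14.5%, 15.5%, 11.8% and 8.22% in the EB lists. Retained far-end regions had similar ES shares, at 44.9%, 40.6%, 39.0% and 40.1%, but higher EB shares, at 35.8%, 34.2%, 22.5% and 19.8%. Retained start regions were at 26.8%, 23.5%, 22.9% and 23.0% in the ES lists and at 20.7%, 18.3%, 9.75% and 7.78% in the EB lists. H3K4me1 in all 4 ES and no EB list was found at 77 far-end regions (17.4%) and 38 start regions (6.25%), against 5.88% and 2.61% of retained far-end and start regions. With the rule limited to gene starts, the stage difference in H3K4me1 was 21.1 points, and the difference from retained regions 11.1 points (exact permutation p = 0.0556 for each).

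**Figure D3:**
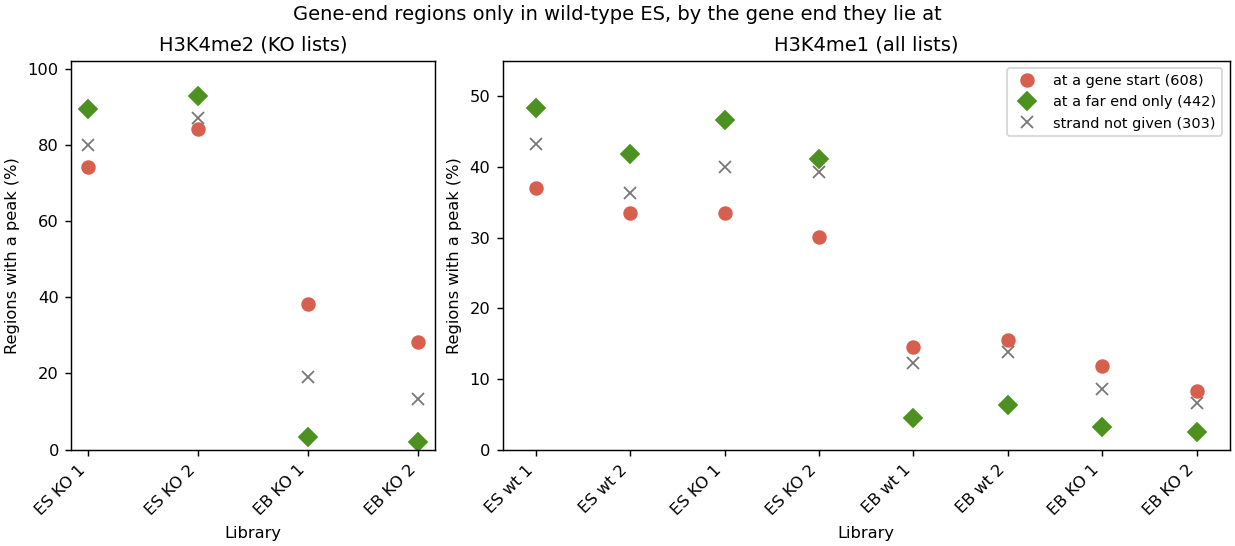
Each point is 1 library, and the vertical axis gives the percent of ES-only gene-end regions with a peak of the H3K4me2 KO lists (left) or the H3K4me1 lists (right), for 608 regions at a gene start, 442 at a far end only and 303 whose gene strand was not given. Far-end regions are the highest class in every ES list and the lowest in every EB list, with 3.17% and 2.04% in EB KO for H3K4me2.

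Genes of 13 lists (275 genes, of which 274 matched the RefSeq table) were looked up. The lists were chosen with earlier results of these data known, so their counts describe and support nothing. Of the 274, 129 were marked in both wild-type ES lists, and 45 of these lay at 46 of the regions (34.9% of 129, beside the 13.7% over all marked genes). Of these 46 regions, 33 (71.7%) were in both ES KO lists and 9 (19.6%) in neither, beside 77.8% and 9.83% over all 1353. In both EB KO lists were 10 (21.7%, beside 13.2%), and in both ES KO and neither EB KO lists 21 (45.7%, beside 61%). Of 20 housekeeping genes, 10 were marked at each stage and 0 lay at one of the regions. Of 21 fibroblast or feeder genes, 11 were marked at each stage and 1, Twist1, lay at one.

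Germline genes, silent in most somatic cells, followed the full H3K4me2 pattern of the KO lists at each of their regions. Of 24 on the list, 10 were marked in both wild-type ES lists and 3 in both wild-type EB lists, and 9 of the 10 lay at one of the regions. These were Dazl, Hormad1, Rhox5, Rnf17, Sohlh2, Stk31, Stra8, Sycp3 and Tex19.1. All 9 regions had a peak in both ES KO lists and in neither EB KO list, a pattern met by 61% of all 1353 regions. H3K4me1 was in at least 1 ES list at 5 of them and in an EB list at 0, beside 63.3% and 21.9% of all 1353. Tex19.1, which restrains retrotransposons in germ cells, was at 350.2 and 364.5 in wild-type ES and at 309.5 and 446 in ES KO (chr11:121145869-121150448). Its H3K4me1 scores were 109 and 80.3 in wild-type ES and 68.4 in the first ES KO list.

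Sycp3, a component of the synaptonemal complex of meiotic chromosomes, was at 329.9 and 324 in wild-type ES and at 444 and 776 in ES KO (chr10:88458954-88460965). Hormad1, another meiotic chromosome protein gene, was at 295 and 225 in wild-type ES and 220.0 and 354 in ES KO. Dazl, which encodes an RNA-binding protein of germ cells, had scores of 71.4 and 77.1 in wild-type ES and of 228 and 301 in ES KO. The Dazl region was 989 bp wide (chr17:50293060-50294048) and Stk31 had one of 1166 bp (chr6:49395116-49396281), both with the start inside and with no H3K4me1 peak in any list. Stra8, which is needed for entry into meiosis, had H3K4me1 in all 4 ES lists, with scores of 108, 51.1, 155 and 119.

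Of the 33 naive and core pluripotency genes, 6 were marked in both wild-type ES lists and 4 of these lay at one of the regions (Dppa4, Lin28a, Tcl1 and Zfp42). Each of the 4 regions was in both ES KO lists, as were 77.8% of all 1353. Lin28a, an RNA-binding inhibitor of let-7 maturation (chr4:134014773-134020851), was at 101 and 465 in wild-type ES, at 413 and 454 in ES KO and at 106 and 84.7 in EB KO. Tcl1, a coactivator of Akt kinase, was at 124 and 78.5 in wild-type ES, with H3K4me1 in all 4 ES lists and no EB list. Of 26 LIF, Nodal and Fgf signalling genes, 11 were marked in both wild-type ES lists and 5 lay at one (Bcl3, Id3, Pim3, Spred1 and Spred2). Id3, a target of BMP signalling, was at 96.7 and 194 in wild-type ES and 129 in the second ES KO list only, with H3K4me1 in all 4 ES lists.

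At genes of the primed epiblast and of the germ layers, some regions had EB KO peaks and some lacked ES KO peaks. Otx2, Pou3f1 and Sox3, of 14 primed epiblast genes, lay at one of the regions. Otx2, an epiblast and forebrain homeobox gene, had a far-end region of 6486 bp (chr14:48651265-48657750) with H3K4me2 of 128 and 127 in wild-type ES, 202.5 in the second ES KO list, and 94.2 and 66.8 in EB KO. Its H3K4me1 scores were 229.99 and 244 in wild-type ES and 202 and 141 in ES KO, with none in EB. Of 20 neuroectoderm genes, 7 were marked in both wild-type ES lists and 5 (Emx2, Lhx2, Pax7, Rax and Zic1) lay at 6 regions, of which 4 were in both ES KO lists and 2 in both EB KO lists. Lhx2, a LIM homeobox gene of the forebrain and eye, was at 159.7 and 204 in wild-type ES, 164 and 167 in ES KO and 107 and 98.1 in EB KO.

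Of 22 primitive streak and mesoderm genes, Evx1, Gsc, Snai1 and Wnt3a lay at one. Of these 4 regions, 3 had a peak in neither ES KO list, beside 9.83% of all 1353. Gsc, an organiser homeobox gene (chr12:104471046-104476696), was at 173 and 224 in wild-type ES and had no KO peak. Foxa2 and Gata4 were the members of 19 endoderm genes. Foxa2 had low H3K4me2 scores of 59.7 and 56.5 in wild-type ES and no H3K4me2 peak in KO. Its H3K4me1 peaks were in all 4 ES lists, with scores of 54.8 and 84.5 in ES KO. Gata3, Krt18 and Krt8 were those of 14 trophoblast genes, Cdh3, Itga5 and Lamc1 those of 24 adhesion genes, and Kmt2d and Mecom those of 20 H3K4 enzyme genes. Of 20 mature tissue genes, Cd3e, Cdh5, Mbp and Umod lay at one, none with a peak in both EB KO lists.

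**Figure D4:**
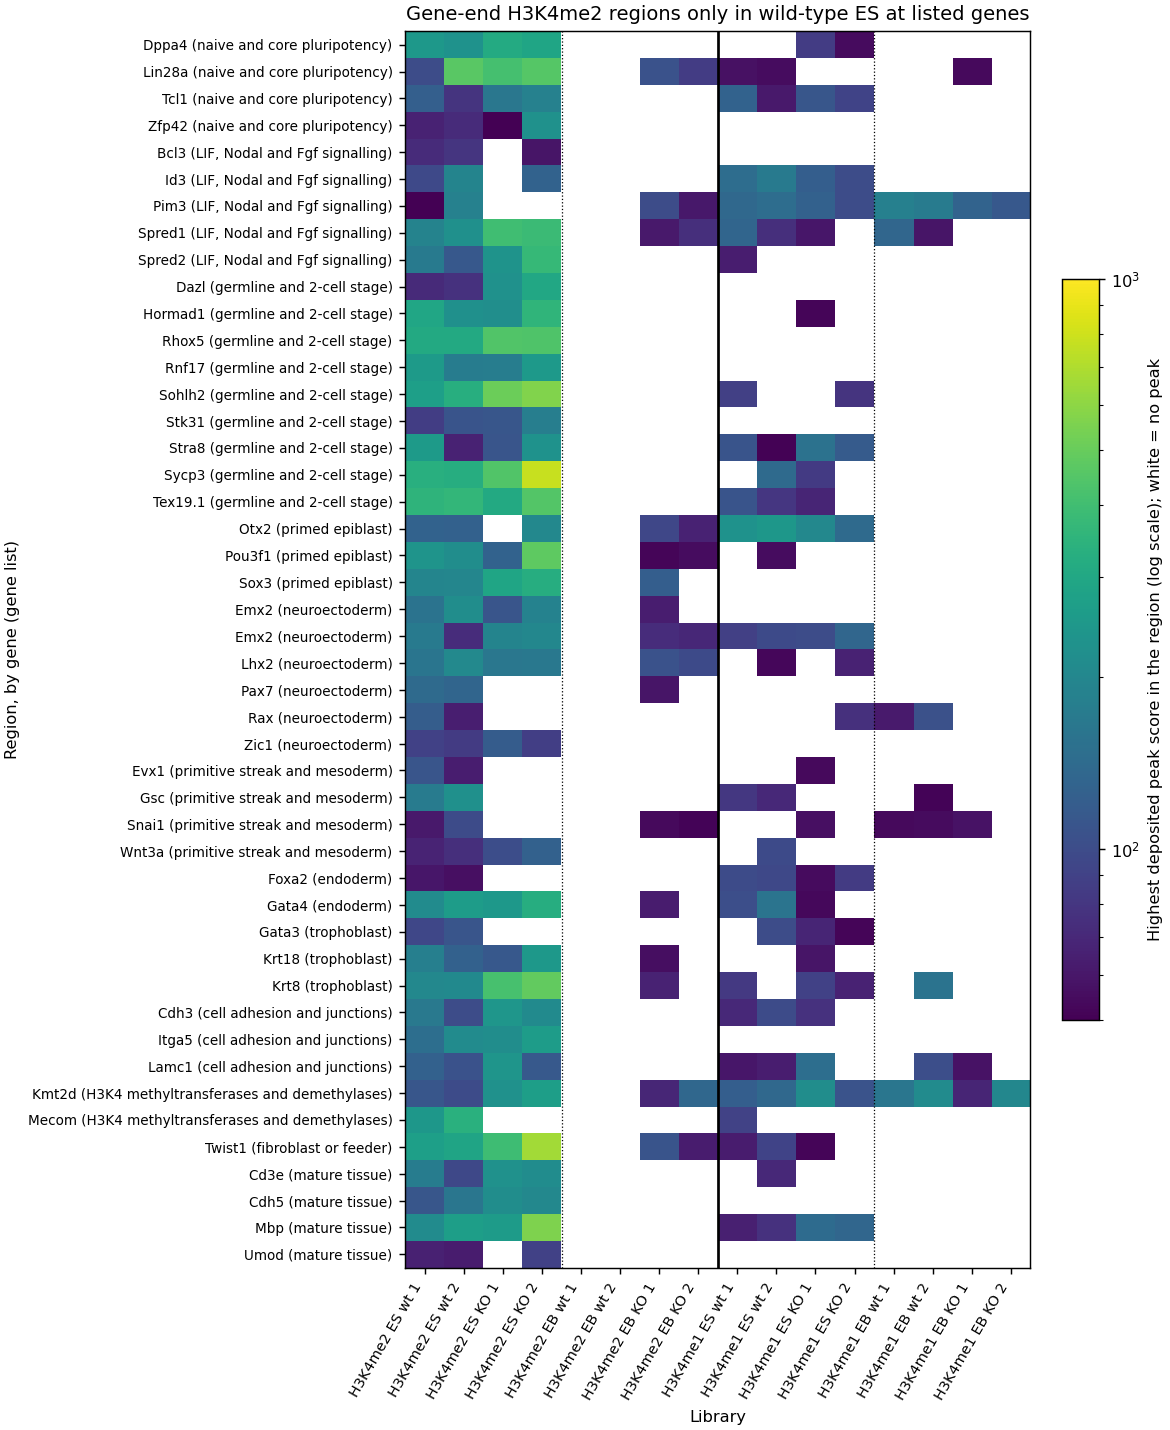
Each row is 1 of the 46 ES-only regions at a listed gene and each column 1 of the 16 H3K4me libraries. Colour gives the highest deposited peak score in the region on a log scale, and white means no peak. The 9 germline rows are filled in all 4 H3K4me2 ES columns and white in all 8 EB columns of both marks.

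PRDM16 peaks were rare at these regions. At least 1 of the 8 PRDM16 lists had a peak at 26 regions (1.92%, against 2.96% of all gene-end regions in both wild-type ES lists), and 2 or more at 3 (0.222%, against 0.338%). By library, 4 and 3 regions had a peak in wild-type ES, 6 and 5 in ES KO, 1 and 12 in wild-type EB, and 2 and 2 in EB KO. The KO lists, which serve as the background of this antibody, held no fewer of these regions than the wild-type lists in ES cells. The ES KO lists were also longer, at 586 and 499 peaks against 331 and 191 in wild-type ES. The part of list length in these counts was not tested. The 3 regions with 2 or more were at Trim41, Inhbc and LOC100504180, with peaks in 2, 4 and 6 PRDM16 lists. Inhbc and LOC100504180 had peaks in both ES KO lists as well as in both wild-type ES lists, while Trim41 had them in wild-type lists only.

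The RefSeq promoters at the regions were between those of all genes and those of retained regions in CpG content. CpG observed over expected, the number of CpG divided by that from the C and G content, had a median of 0.603 over the 628 promoters whose start lay within 2500 bp of an ES-only region. The median was 0.384 over all 32851 promoters of the table and 0.781 over 6909 promoters at retained regions. The regions were not alike among themselves. At those with a peak in both EB KO lists (154 promoters) the median was 0.761, near that of retained regions, and at those with a peak in neither (351 promoters) it was 0.455. The 7 germline promoters in the table had a median of 0.666 although none had an EB KO peak. Lhx2, at 0.885, and Efna5, at 1.10, had EB KO peaks, while Mecom, at 1.02, had none in any KO list.

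**Figure D5:**
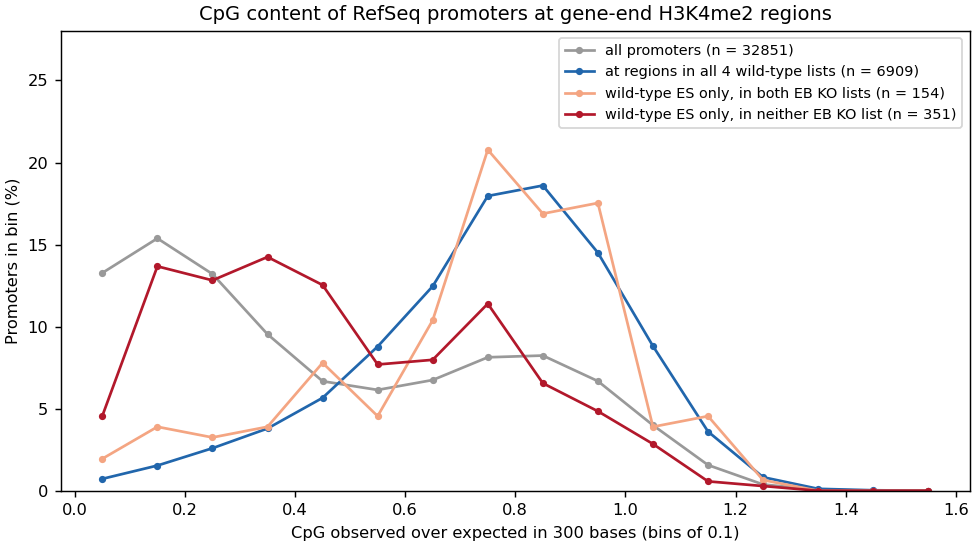
The horizontal axis is CpG observed over expected in the 300 bases of each RefSeq promoter, in bins of 0.1, and the vertical axis the percent of promoters per bin. Promoters at ES-only regions in both EB KO lists have a median of 0.761, near the 0.781 of promoters at retained regions, and those in neither EB KO list a median of 0.455.

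Short motifs were counted on both strands of the same 300 bases, as letters only. GGGCGG, the core of GC boxes, was in 53.2% of the promoters at ES-only regions, 68.3% of those at retained regions and 35.7% of all. Its share was 68.8% where both EB KO lists had a peak and 40.2% where neither did. TATAAA was in 10.4%, 5.91% and 13.6%, and ATGCAAAT, the octamer bound by POU factors, in 2.39%, 1.09% and 1.74% of the same 3 sets. CACGTG, an E-box, was in 9.08%, 10.1% and 7.15%. It was in 3 of the 7 germline promoters, those of Hormad1, Stk31 and Sycp3 printed above, where it reads with its central CpG in capitals.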

How the data were processed

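Each of the 24 libraries had 1 deposited list of peaks with a score per peak. The score is the authors' value as deposited, at least 50 in every list, and its unit is not stated. It served to rank peaks inside 1 list and to describe single regions. The submitters' processing notes name mm10 as the build, and HOMER 4.10, deepTools, MACS2, bedtools, SAMtools 1.5 and Bowtie2 without their roles. Peaks were called per library, as the separate lists show; control library, duplicate handling and scaling: not given in the sources used here. The members and lists were chosen with earlier results of these data known. Some listed genes are not reported here.

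The 1 peak per list outside chromosomes 1 to 19, X and Y was set aside. Overlapping peaks were merged, and sharing 1 bp with a peak counted as presence of a region in that library. Gene ends came from the RefSeq table of GRCm38.p6 (21887 protein-coding genes), which gives no exons. The share of regions with a peak was compared between groups of libraries with two-sided exact permutation tests, 6 in all, with Benjamini-Hochberg adjustment. Named regions were those at listed genes, those highest by the lower of the 2 wild-type ES score ranks overall and within the KO and H3K4me1 patterns, the 10 widest, those with 2 or more PRDM16 peaks and those with the most gene ends. Library numbers gave no sign of pairing: correlations of number differences between groups ran from -0.05 to 0.04 over the regions. These rest on presence or absence of peaks and cannot exclude that samples were paired. Scripts used Python 3.11.15, NumPy 2.4.6, SciPy 1.17.1 and Matplotlib 3.10.9 and were tested on simulated data. Alternatives were other windows, merging, overlap, score and list-length limits, the library series and each library left out.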

Additional observations from a re-analysis of the deposited data

Results flagged for a closer look

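The stage difference in H3K4me1 was set apart because it was larger at ES-only gene-end regions than at retained ones: the share at ES-only regions minus that at retained regions was positive in all 4 ES libraries and negative in all 4 EB libraries. The difference between stages was 19.3 percentage points, with an exact permutation p of 0.0556, the smallest the design allows. It was 22.3 points in wild type and 16.2 points in KO. More H3K4me1 in ES cells than in EB was not particular to gene ends. Distal ES-only regions had mean shares of 43.8% in wild-type ES, 41.3% in ES KO, 9.12% in wild-type EB and 5.84% in EB KO.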

How the results depend on the processing

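The number of regions was 2578 with a window of 10000 bp, 608 with gene starts only, 660 with equal list lengths, 677 in the upper 50% of score ranks and 2078 without the libraries of the second series, and it ran from 1550 to 2078 when each wild-type H3K4me2 library was left out. The mean share with a peak in ES KO was 69.5% with equal list lengths and 73.1% to 87.6% with a library left out. The H3K4me1 difference between ES cells and EB kept its direction in all 23 alternatives (15.95 to 34.9 points), as did its excess over retained regions (10.6 to 23.3 points). With stage shuffled over all 8 libraries both (29.2 and 19.3 points) had an exact permutation p of 0.0286, the smallest that 70 assignments allow. That shuffle ignores genotype, which the planned test kept as a stratum, so its lower p adds no evidence. The KO minus wild-type difference in H3K4me1 turned to 0.45 points in EB with equal list lengths, which keep fewer peaks, and ran from -4.62 to 0.63 points in ES cells with a library left out. With the replicate number as a block the H3K4me1 differences are the same by construction, at 29.2 and 19.3 points. The exact permutation p was 0.125 each, the smallest that 16 assignments allow. No p under 0.05 was possible with this block or in the main tests, so the block says nothing on robustness. H3K4me2 in KO kept its direction in all 18 alternatives (39.5 to 73.5 points). Read depth is unknown, so a missing peak is not evidence of a missing mark.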

Other observations

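These values were picked out after they were seen and carry no test. On the X chromosome 14 of 342 gene-end regions in both wild-type ES lists were ES-only (4.09%), and on Y 0 of 3, against 8.13% on chromosome 16 and 16.7% on chromosome 11, the lowest and highest autosomes. The germline homeobox gene Rhox5 and the progenitor gene Sox3 lay at 2 of the 14. By gene name stem, all 5 Pcdhb genes marked in both wild-type ES lists lay at an ES-only region, as did 5 of 9 Tcf genes (Tcf20, Tcf21, Tcf23, Tcf4 and Tcf7l2), 5 of 11 Sox genes (Sox11, Sox13, Sox18, Sox3 and Sox8), 8 of 17 Prss genes, which encode serine proteases, and 10 of 33 Trim genes. The Zfp genes, most of which encode zinc finger proteins, were at 37 of 296 (12.5%), near the 13.7% over all marked genes. Genes of a stem often lie side by side and can share a region.

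Over the 12 H3K4me lists that the rule did not use, 24 regions (1.77%) had a peak in none and 4 had one in all 12. The most frequent number was 2 lists, at 328 regions (24.2%).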
